A study of Mus musculus with 16 samples.

Results

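The 10 genes studied here report on the extracellular signal-regulated kinase (ERK) pathway, in mouse kidney epithelial cells treated with doxycycline (DOX). They were taken from a list by gene symbol, and all were found among the 54393 genes of the count table. The list holds the immediate early transcription factors *Egr1*, *Fos*, *Fosl1*, *Jun* and *Junb*, the ERK phosphatases *Dusp4*, *Dusp5* and *Dusp6*, and the pathway inhibitors *Spry2* and *Spry4*. The cells were mIMCD3, a wild-type line with collecting duct origin that was made from the inner medulla of a mouse carrying SV40 genes, so its controls carry the viral transgene too. Cells grew for 10 days on permeable filters and then received either 2 µg/mL DOX, a tetracycline antibiotic, or its vehicle DMSO for 3 or 6 days. The medium held serum and added growth factors, among them epidermal growth factor and insulin, in all groups. Poly(A) RNA was sequenced from 4 libraries of each of the 4 groups, DMSO 3 days, DOX 3 days, DMSO 6 days and DOX 6 days.

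The 16 libraries held between 16933343 and 23960860 estimated counts, and libraries of the same group correlated at between 0.9811 and 0.9924 across genes. Nothing in the labels says that the numbered replicates were separate cultures, so the p-values measure the spread between these libraries. In bulk RNA, fewer cells with a transcript and less of it per cell cannot be told apart. All 7 epithelial markers on a short list were expressed, with a summed level of 2160 to 2630 TPM (transcript abundance scaled for length and depth) in DMSO and 1600 to 1860 TPM in DOX libraries. Of 9 collecting duct markers, only *Scnn1a* and *Gata3* were expressed well enough to be tested, and the vasopressin-regulated water channel gene *Aqp2* did not pass 0.391 TPM in any library. The 9 summed to between 6.20 and 9.46 TPM in DMSO and between 2.96 and 4.94 TPM in DOX libraries.

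ERK is the last kinase of a relay that runs from growth factor receptors through RAS, RAF and MEK. Once active, it phosphorylates transcription factors that switch on the immediate early genes within minutes, without new protein synthesis, and it switches on its own inhibitors. The dual-specificity phosphatases remove the activating phosphates from ERK, and the Sprouty proteins act higher up, between receptor and RAF. In renal tubule epithelium the pathway is known mainly for its part in proliferation, repair and cyst growth.

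Upstream sequences from RefSeq (GRCm38.p6) were used for 6 of the 10 genes, *Fos*, *Jun*, *Junb*, *Dusp5*, *Dusp6* and *Spry2*. No entry was used for *Fosl1* and *Dusp4*. *Egr1* and *Spry4* were left out of the search, so nothing is said here of motifs upstream of them. The sequences of *Fos*, *Jun* and *Dusp6*, which were lower in DOX, are shown beside that of *Dusp5*, which was not called. Whether any motif goes with the change in DOX was not tested. Each printed sequence ends just before the gene start annotated in GENCODE M21, and capitals mark a match to a motif searched on both strands. For *Dusp5* the RefSeq start lies farther downstream, so only 214 of the 250 bases searched are printed. The *Fos* window is chr12:85473640-85473889 on the plus strand, *Jun* is chr4:95052223-95052472 on the minus strand, *Dusp6* is chr10:99262981-99263230 on the plus strand, and *Dusp5* is chr19:53528895-53529108 on the plus strand.
Fos: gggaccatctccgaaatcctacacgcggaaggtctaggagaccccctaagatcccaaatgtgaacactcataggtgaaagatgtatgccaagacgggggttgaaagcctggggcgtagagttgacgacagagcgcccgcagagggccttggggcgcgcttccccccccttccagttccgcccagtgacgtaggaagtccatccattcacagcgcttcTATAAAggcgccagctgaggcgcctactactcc
Jun: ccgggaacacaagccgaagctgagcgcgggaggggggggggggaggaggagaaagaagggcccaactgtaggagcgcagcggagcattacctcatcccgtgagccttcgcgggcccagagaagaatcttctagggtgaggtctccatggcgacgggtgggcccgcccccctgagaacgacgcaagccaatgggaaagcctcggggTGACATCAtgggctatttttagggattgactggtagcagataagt
Dusp6: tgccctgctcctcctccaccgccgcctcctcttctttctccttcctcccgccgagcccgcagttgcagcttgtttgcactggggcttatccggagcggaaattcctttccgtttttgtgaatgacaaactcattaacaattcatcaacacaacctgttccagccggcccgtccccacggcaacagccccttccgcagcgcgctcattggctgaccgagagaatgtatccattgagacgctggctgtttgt
Dusp5: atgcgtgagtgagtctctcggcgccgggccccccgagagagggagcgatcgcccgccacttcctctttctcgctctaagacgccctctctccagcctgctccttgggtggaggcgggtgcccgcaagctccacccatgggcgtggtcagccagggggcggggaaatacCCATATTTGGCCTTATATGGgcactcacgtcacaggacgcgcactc
The motifs searched were the CArG box bound by serum response factor, the cyclic AMP response element TGACGTCA, the AP-1 element TGANTCA, the ETS core CCGGAA and the EGR element GCGNGGGCG. TGACATCA and TATAAA were added after the sequences had been seen. In the 250 bases before the RefSeq start, *Dusp5* held a pair of adjoining CArG boxes, at 82 to 73 and 72 to 63 bases before that start. These positions do not count from the end of the printed *Dusp5* sequence, which stops short of the RefSeq start. A CArG box stood in 1.47% of 32851 windows of 250 bases. *Fos* held TATAAA (12.4% of windows) and *Jun* held TGACATCA (2.93% of windows). Within these 250 bases, the 5 motifs searched from the outset gave no other match among the 6 genes. Sites farther upstream were not searched, so a missing match does not show that a gene lacks the motif. The shares of all windows were 1.55% for TGACGTCA, 6.75% for TGANTCA, 12.0% for CCGGAA and 4.70% for GCGNGGGCG.

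All 10 genes were transcribed in vehicle-treated cells, over a wide range of levels. By mean TPM over the 8 DMSO libraries, *Junb* stood highest at 130.5 ± 17.3 (SD, n = 8). *Dusp6* followed at 67.3 ± 6.03 TPM and *Egr1* at 49.7 ± 5.16 TPM, and their libraries overlapped. *Dusp4* (27.2 ± 1.92 TPM), *Fosl1* (22.3 ± 2.24 TPM), *Dusp5* (20.3 ± 1.99 TPM) and *Jun* (17.6 ± 1.69 TPM) formed a middle range in which each overlapped its neighbour. *Spry2* (7.12 ± 0.731 TPM) and *Fos* (6.29 ± 1.01 TPM) overlapped below them, and *Spry4* was lowest at 1.85 ± 0.299 TPM. The order in DOX was the same at both times except that *Dusp5* stood above *Fosl1*.

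DOX lowered part of the set. *Egr1*, *Fos*, *Fosl1*, *Jun* and *Dusp6* fell at 3 days, and the same 5 genes fell at 6 days. None of the 10 rose. *Spry2* at 3 days had the only log2 fold change above 0. The test was edgeR's glmTreat with a threshold of 20% on the change, and p was adjusted over the 13234 genes that reached a CPM (count scaled to library size) of 1 in at least 4 libraries, as all 10 did. At 3 days, 5 of 10 were called lower against 7.22% of all tested genes (5.30% were called higher), and 0 of 10 were higher by DESeq2 or by an unadjusted p under 0.05 at either time. At 6 days, 5 of 10 were called lower against 11.6% of all tested genes (10.0% were called higher). The median log2 fold change of the 10 was -0.39 at 3 days and -0.49 at 6 days, beside 0.00 in all tested genes at both times. In 7 of 10 genes every DOX library lay below every DMSO library at 3 days, as did 19.8% of all tested genes, and in 5 of 10 at 6 days, as did 20.9%. These calls held when any of the 16 libraries was left out.

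**Figure D1:**
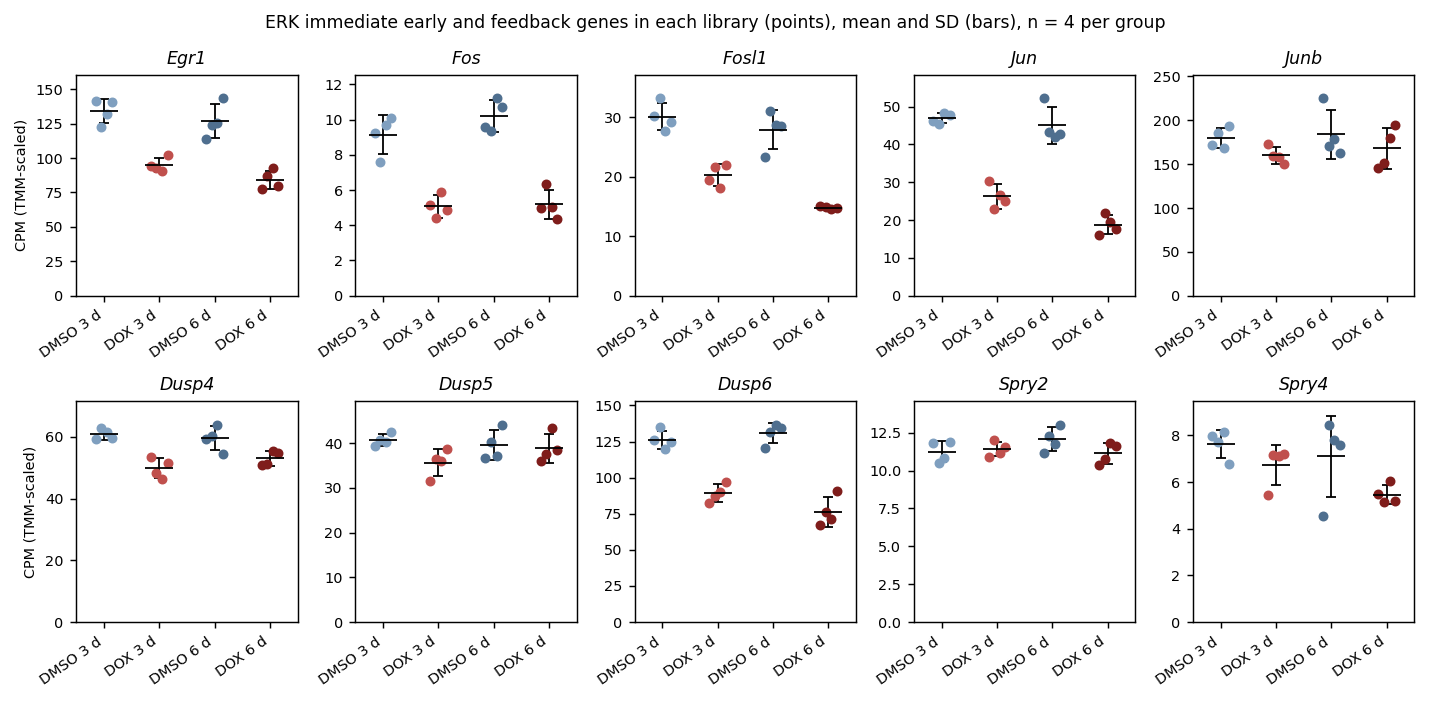
TMM-scaled CPM of the 10 genes in each of the 16 libraries by group (points), with the mean (long bar) and SD of 4 libraries. *Egr1*, *Fos*, *Fosl1*, *Jun* and *Dusp6* show DOX points below all DMSO points of the same time, while *Junb*, *Spry2* and *Spry4* overlap.

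*Egr1* (ENSMUSG00000038418, chromosome 18 from 34859823 to 34864984) encodes a zinc finger transcription factor that growth factors induce through ERK. At 3 days it measured 142, 122, 132 and 141 CPM in the DMSO libraries and 94.0, 93.0, 90.6 and 102 CPM in the DOX libraries. After 6 days the DMSO libraries held 114, 124, 125 and 143 CPM and the DOX libraries 77.8, 86.8, 92.5 and 79.6 CPM. The groups did not overlap at either time, and the DMSO libraries of both times covered much the same range. The log2 fold change at 3 days was -0.50 (SE 0.0712, adjusted p = 0.00462), or 29.3% less transcript. At 6 days it was -0.59 (SE 0.0713, adjusted p = 0.000161), or 33.6% less. With an offset that removes trends with transcript length, the change at 3 days was -0.39 and was not called (adjusted p = 0.0659).

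*Fos* (ENSMUSG00000021250, chromosome 12 from 85473890 to 85477273) encodes the partner of the Jun proteins in the AP-1 transcription factor and is the archetype of the immediate early genes. Its 4 DMSO libraries at 3 days held 9.25, 7.60, 9.67 and 10.1 CPM, and the DOX libraries held 5.16, 4.38, 5.91 and 4.86 CPM. At 6 days DMSO libraries held 9.57, 9.34, 11.2 and 10.7 CPM against 4.98, 6.32, 5.04 and 4.37 CPM in DOX. The highest DOX library thus lay under the lowest DMSO library at both times. *Fos* fell by 0.85 on the log2 scale at 3 days (SE 0.124, adjusted p = 0.000323). The 6-day fall was larger in size, at -0.97 (SE 0.121, adjusted p = 1.67e-05), but the difference between times was not called. Its window upstream of the start was the only printed window with TATAAA. It was among the less abundant of the 10, with as few as 88 counts in a DOX library.

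*Fosl1* (ENSMUSG00000024912, chromosome 19 from 5447547 to 5455946) encodes FRA1, a longer-lived Fos protein that follows sustained ERK activity. The DMSO libraries at 3 days measured 30.1, 33.2, 27.8 and 29.3 CPM and the DOX libraries 19.4, 21.7, 18.1 and 22.0 CPM. At 6 days the DMSO libraries measured 23.3, 31.0, 28.7 and 28.6 CPM, and the DOX libraries lay close together at 15.1, 14.9, 14.6 and 14.7 CPM. DOX libraries of 6 days were all below those of 3 days. DOX lowered *Fosl1* by a log2 fold change of -0.57 (SE 0.0832, adjusted p = 0.00234) after 3 days. After 6 days the change was -0.92 (SE 0.0852, adjusted p = 4.7e-07). An offset for average transcript length, read from the ratio of count to TPM in each library, took the 3-day change to -0.48, which was not called (adjusted p = 0.0646).

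*Jun* (ENSMUSG00000052684, chromosome 4 from 95049034 to 95052222) encodes c-Jun, the other core component of AP-1, which also binds its own promoter. It measured 46.3, 45.4, 48.3 and 47.7 CPM in DMSO at 3 days and 30.5, 22.8, 26.7 and 25.1 CPM in DOX. At 6 days it measured 52.2, 43.2, 42.0 and 42.7 CPM in DMSO and 15.9, 21.9, 19.5 and 17.7 CPM in DOX. No DOX library reached the level of any DMSO library. *Jun* had the largest change of the 10 at 6 days, with a log2 fold change of -1.26 (SE 0.0941, adjusted p = 7.91e-09), which is 58.2% less transcript. At 3 days it was -0.84 (SE 0.0921, adjusted p = 1.58e-05).

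*Junb* (ENSMUSG00000052837, chromosome 8 from 84974484 to 84978718) encodes a Jun protein that activates weakly and can hold back c-Jun. The DMSO libraries of 3 days held 172, 185, 168 and 194 CPM and the DOX libraries 173, 159, 158 and 149.8 CPM. At 6 days DMSO held 225, 171, 178 and 163 CPM and DOX 146, 151, 179 and 195 CPM. The groups overlapped at both times. *Junb* was not called at 3 days (log2 fold change -0.17, SE 0.0963) or at 6 days (-0.13, SE 0.0961), with adjusted p = 1 at both times by edgeR.

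*Jun* and *Junb* were also set against each other within each library, in ratios that were chosen after the values had been seen and were not tested. On the TPM scale, which compares genes within a library, the ratio of *Jun* to *Junb* was 0.14 ± 0.0107 (SD, n = 4) in DMSO and 0.0878 ± 0.00754 in DOX at 3 days. At 6 days it was 0.131 ± 0.00726 in DMSO and 0.0606 ± 0.0117 in DOX. The libraries of DMSO and DOX did not overlap in this ratio at either time. Of the summed TPM of 7 Fos and Jun family genes, *Jun* made up 4.46% ± 0.219 in DMSO and 2.44% ± 0.394 in DOX at 6 days, while *Junb* made up 34.0% ± 1.66 and 40.5% ± 1.23. *Jund*, the most abundant of the 7 and no member of the list of 10, made up 47.8% ± 1.14 and 47.3% ± 1.32.

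**Figure D2:**
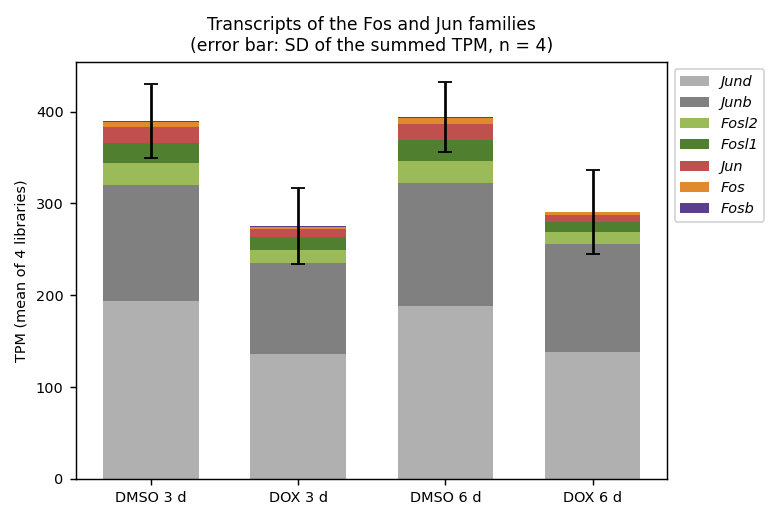
Mean TPM of 7 Fos and Jun family genes, stacked, in the 4 groups (n = 4 each), with the SD of the sum. *Jund* and *Junb* make up most of each bar, and the *Jun* segment goes from 17.6 TPM in DMSO to 7.05 TPM in DOX at 6 days.

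Among the phosphatases, *Dusp6* (ENSMUSG00000019960, chromosome 10 from 99263231 to 99267489) encodes the cytoplasmic phosphatase that acts selectively on ERK. The DMSO libraries at 3 days measured 126, 135, 120 and 125 CPM and the DOX libraries 82.5, 87.0, 90.2 and 97.1 CPM. At 6 days they measured 121, 132, 137 and 135 CPM in DMSO against 67.2, 76.0, 71.6 and 90.9 CPM in DOX. Every DOX library lay below every DMSO library. The log2 fold change at 3 days was -0.50 (SE 0.0755, adjusted p = 0.00629). It was -0.78 at 6 days (SE 0.0758, adjusted p = 1.84e-06).

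*Dusp4* (ENSMUSG00000031530, chromosome 8 from 34807297 to 34819894) encodes a nuclear phosphatase that acts on ERK and on other MAP kinases. It measured 59.2, 62.9, 61.5 and 59.5 CPM in DMSO and 53.4, 48.3, 46.2 and 51.6 CPM in DOX at 3 days, with no overlap. The 3-day log2 fold change of -0.29 (SE 0.0604) was not called in the test with the 20% threshold (adjusted p = 0.491). It passed a test against no change (adjusted p = 0.00068). At 6 days DMSO libraries held 59.3, 60.2, 64.0 and 54.6 CPM and DOX libraries 50.8, 51.1, 55.4 and 54.7 CPM, so that the groups overlapped, and the log2 fold change was -0.17 (SE 0.0601, adjusted p = 1). Relative to *Dusp4*, *Dusp6* stood at a TPM ratio of 2.59 ± 0.166 in DMSO and 1.65 ± 0.259 in DOX at 6 days (SD, n = 4), with no overlap. At 3 days the ratio was 2.37 ± 0.113 and 2.08 ± 0.182, and the libraries overlapped. This ratio too was chosen after its values were seen.

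*Dusp5* (ENSMUSG00000034765, chromosome 19 from 53529109 to 53542431), the gene with the CArG pair shown above, encodes the nuclear phosphatase that is specific for ERK. It measured 39.3, 40.6, 40.4 and 42.4 CPM in DMSO and 31.6, 36.4, 36.0 and 38.7 CPM in DOX at 3 days. At 6 days it measured 36.8, 40.2, 37.2 and 44.2 CPM in DMSO and 36.0, 37.5, 43.3 and 38.4 CPM in DOX. DOX lay below DMSO at 3 days only, and the ranges were nearly the same at 6 days. Neither log2 fold change was called (-0.19, SE 0.0736 at 3 days and -0.03, SE 0.0731 at 6 days, adjusted p = 1 for both).

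The Sprouty genes were not called. *Spry2* (ENSMUSG00000022114, chromosome 14 from 105891947 to 105896819) ranged from 10.5 to 11.9 CPM in DMSO and from 10.9 to 12.0 CPM in DOX at 3 days. At 6 days it ranged from 11.2 to 13.0 CPM in DMSO and from 10.4 to 11.8 CPM in DOX. The log2 fold changes of 0.02 (SE 0.0788) and -0.12 (SE 0.0780) had adjusted p = 1, and the sign at 3 days turned on the TPM scale (-0.15 on log2(TPM + 1)), where the median of all genes was itself at -0.15.

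*Spry4* (ENSMUSG00000024427, chromosome 18 from 38586247 to 38601415) was the least abundant of the 10, with 81 counts in its lowest library. It measured 7.96, 7.73, 8.13 and 6.78 CPM in DMSO and 5.46, 7.17, 7.11 and 7.21 CPM in DOX at 3 days (log2 fold change -0.18, SE 0.143, adjusted p = 0.944). At 6 days it measured 4.53, 8.47, 7.80 and 7.60 CPM in DMSO and 5.48, 5.13, 6.03 and 5.20 CPM in DOX. DMSO replicate 1 of 6 days lay below all 4 DOX libraries, and the other 3 DMSO libraries lay above them. The 6-day log2 fold change was -0.38 (SE 0.145, adjusted p = 0.252), and without that DMSO library it was -0.54 and was called (SE 0.112, adjusted p = 0.0135). That library held the highest or the lowest value of its group in 8 of the 10 genes, as did DOX replicate 1 of 6 days. Every gene has a highest and a lowest library in each group of 4, and this count ran from 3 to 8 over the 16 libraries. It was 7 for DMSO replicate 2 and for DOX replicate 1 of 3 days. The same count was not made over all tested genes.

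**Figure D3:**
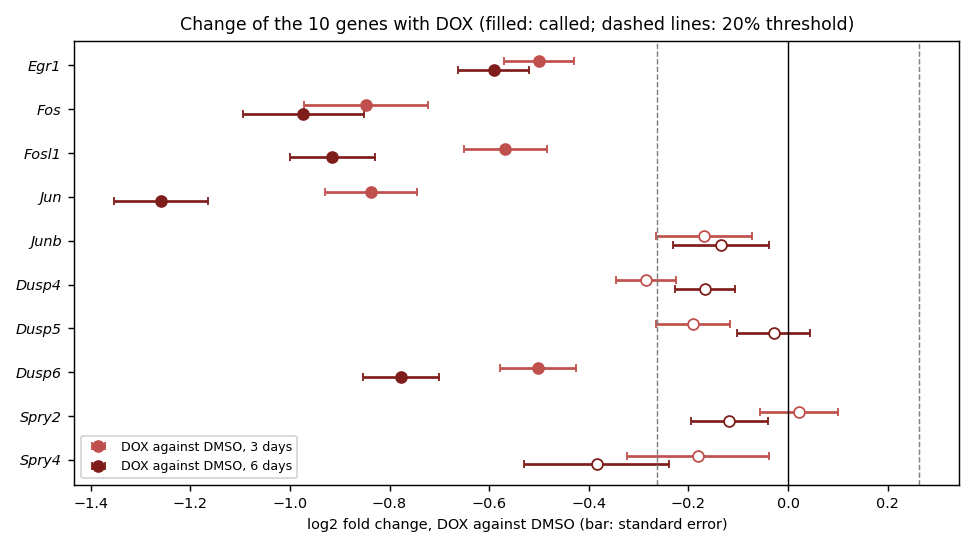
Log2 fold change of DOX against DMSO for the 10 genes at 3 and 6 days, with standard errors from edgeR over 16 libraries. Filled points are called beyond the 20% threshold (dashed lines), and they belong to *Egr1*, *Fos*, *Fosl1*, *Jun* and *Dusp6* at both times.

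Several of the 10 share sequence with another annotated gene on the opposite strand. These are *Fosl1* with *Ccdc85b*, *Jun* with *Junos*, *Junb* with *Prdx2*, *Dusp5* with *AC137853.2* and *Spry4* with *Gm27369* and *Gm27804*. The library kit keeps strand, but whether the counting used it is not given in the sources used here, so reads in the shared stretches are of uncertain origin for these 5 genes. *Egr1*, *Fos*, *Dusp4*, *Dusp6* and *Spry2* had no such overlap.

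The difference between the DOX effects at 6 and at 3 days was tested as an interaction in edgeR, without a fold threshold. *Jun* (-0.42, SE 0.131, adjusted p = 0.0318) and *Fosl1* (-0.35, SE 0.119, adjusted p = 0.0489) fell further at 6 days than at 3 days, 2 of 10 genes against 9.58% of all tested genes called in that direction. *Dusp6* did not pass (-0.27, SE 0.107, adjusted p = 0.0784), and *Egr1* (-0.09, SE 0.101) and *Fos* (-0.13, SE 0.174) had adjusted p = 0.577 and 0.664. Both calls lay near the limit. That of *Fosl1* was lost in 11 and that of *Jun* in 6 of the 16 fits that each left out 1 library, with adjusted p up to 0.118 and 0.0706. The number of tested genes called in that direction, 1268, itself ranged from 789 without DMSO replicate 4 of 3 days to 1951 without DOX replicate 1 of 3 days.

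Time alone was compared within each treatment, and these comparisons use the same libraries as the DOX effects above. In DMSO, 0 of 10 genes and 0% of all tested genes were called between 6 and 3 days by glmTreat. None of the 10 had an unadjusted p under 0.05 (172 of the 13234 tested genes did), and DESeq2 also called 0 of 10. Their log2 changes in DMSO lay between -0.11 and 0.16. In DOX, 0 of 10 were called by glmTreat against 3.94% of all tested genes, while 2 of 10 had an unadjusted p under 0.05, and DESeq2 called 0 of 10. These were *Jun* (-0.48, SE 0.0965, adjusted p = 0.0808) and *Fosl1* (-0.46, SE 0.0869, adjusted p = 0.0848), the genes whose DOX libraries of 6 days all lay below those of 3 days. This separation was seen in 2 of 10 genes and in 10.8% of all tested genes. Without the fold threshold both were called, with *Dusp6* (-0.22, SE 0.0762, adjusted p = 0.0316). That test also called 1934 of the 13234 tested genes lower and 2066 higher in DOX at 6 against 3 days.

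Other genes of the pathway were counted from lists, which were chosen with earlier results of these data known. Of 21 tested immediate early genes outside the 10, 8 fell at 3 days and 8 at 6 days. Only *Myc*, a driver of cell growth, was called higher, at 3 days (0.43, SE 0.0491, adjusted p = 0.00369). At 6 days *Myc* stood at 0.30 (SE 0.0489) and was not called (adjusted p = 0.254). Of all tested genes, 7.22% were called lower and 5.30% higher at 3 days, and 11.6% and 10.0% at 6 days. Without the fold threshold, 12 of the 21 were lower and 2 higher at 3 days, and 16 and 2 at 6 days. That setting called 2935 of all tested genes lower and 3047 higher at 3 days, and 3306 and 3396 at 6 days. *Arc*, an immediate early gene best known from neurons, went from 15.5 ± 0.924 to 6.32 ± 0.731 CPM at 3 days (log2 fold change -1.29, SE 0.0913, adjusted p = 1.13e-08), and its 6-day log2 fold change was -1.44. *Fosl2*, which encodes the Fos protein FRA2, went from 80.6 ± 4.49 to 46.9 ± 2.44 CPM at 6 days (log2 fold change -0.78, SE 0.0766, adjusted p = 1.9e-06). *Egr2*, a relative of *Egr1*, had log2 fold changes of -1.34 and -1.09 from at most 2.48 CPM on average, and *Klf2*, a flow-responsive zinc finger factor, -0.68 and -1.09. The list's median log2 fold change was -0.34 at 3 days and -0.37 at 6 days. Its count of lower genes was 5 at 3 days under DESeq2 and on log2(TPM + 1), and at 6 days 4 on log2(TPM + 1) and 5 on log2(TPM + 0.1). *Klf2* lost its 3-day call under DESeq2 (adjusted p = 0.0899), *Egr2* lost both calls on log2(TPM + 1) (adjusted p = 0.156 and 0.208), and on both TPM scales no gene of the list was called higher at 3 days.

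Of 17 other feedback inhibitors tested, 5 fell at each time and none rose (0 by DESeq2 and 0 with an unadjusted p under 0.05 also), with medians of -0.24 and -0.28 (log2). Lower calls made up 7.22% of all tested genes at 3 days and 11.6% at 6 days, and higher calls 5.30% and 10.0%. *Spry3*, which was also listed, was not analysed here. *Dusp10* and *Dusp1*, whose products act mainly on the stress-activated p38 and JNK kinases, had the largest changes. *Dusp10* went from 41.9 ± 4.88 CPM in DMSO to 15.2 ± 0.229 CPM in DOX at 6 days (log2 fold change -1.46, SE 0.0814, adjusted p = 6.21e-11). *Dusp1* went from 43.5 ± 5.59 to 16.1 ± 1.17 CPM (-1.43, SE 0.0847, adjusted p = 1.6e-10). *Errfi1*, an inhibitor of the epidermal growth factor receptor, had log2 fold changes of -0.85 (SE 0.0576, adjusted p = 2.49e-08) and -0.90 (SE 0.0577, adjusted p = 2.76e-09). *Dusp14* was called lower at 6 days only (-0.59, SE 0.0688, adjusted p = 0.000113), and the receptor-binding *Lrig1* at 3 days only (-0.58, SE 0.0835, adjusted p = 0.00161). Without the fold threshold, edgeR also called *Dusp14* lower at 3 days (-0.24, adjusted p = 0.00604). It likewise called *Lrig1* lower at 6 days (-0.35, adjusted p = 0.00138). The difference between times passed the test for *Dusp14* (adjusted p = 0.0185) and did not for *Lrig1* (adjusted p = 0.177). The 3-day call of *Lrig1* was lost with the length spline (-0.41, adjusted p = 0.0647) and on both TPM scales (adjusted p = 0.109 and 0.0687), and the spline left 3 of the 5 lower genes of 3 days.

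Other known ERK targets moved both ways. Of 11 tested, 2 fell and 2 rose at 3 days, and 3 fell and 3 rose at 6 days. Beside these counts, 7.22% of all tested genes were lower and 5.30% higher at 3 days, and 11.6% and 10.0% at 6 days. *Phlda1*, *Epha4* and *Hbegf* were called lower, the last at 6 days only. The Ets factor gene *Etv5* and the growth factor genes *Areg* and *Lif* were called higher, *Lif* at 6 days only. *Etv5* rose from 6.50 ± 1.03 to 14.2 ± 1.00 CPM at 6 days (log2 fold change 1.13, SE 0.108, adjusted p = 4e-07). *Areg*, encoding a ligand of the epidermal growth factor receptor, rose from 7.65 ± 1.31 to 13.8 ± 1.47 CPM (0.84, SE 0.158, adjusted p = 0.00171). *Phlda1* fell from 33.7 ± 2.41 to 17.5 ± 1.73 CPM (-0.94, SE 0.0796, adjusted p = 1.1e-07). The ephrin receptor gene *Epha4* fell by 0.70 on the log2 scale at 3 days and by 0.96 at 6 days. At 3 days the call of *Phlda1* (-0.45, adjusted p = 0.0275) was lost under DESeq2 (adjusted p = 0.26), on both TPM scales, with the average length offset (adjusted p = 0.465) and without DMSO replicate 1 (adjusted p = 0.0683), DMSO replicate 2 (adjusted p = 0.0588) or DOX replicate 1 (adjusted p = 0.077), each of which left 1 lower gene. That of *Etv5* at 3 days was lost on log2(TPM + 1) (adjusted p = 0.118).

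The genes that encode the relay itself were called in both directions. Of 23 genes from adaptors to ERK, its kinase substrates and its Ets partners, 1 fell and 1 rose at 3 days, and 2 fell and 2 rose at 6 days, with median log2 fold changes of -0.06 and -0.02. These counts stand beside the 7.22% lower and 5.30% higher of all tested genes at 3 days and the 11.6% and 10.0% at 6 days. *Rps6ka2*, encoding a kinase that ERK activates, rose at both times (0.57, SE 0.0976, adjusted p = 0.00604, and 0.89, SE 0.0964, adjusted p = 3.66e-06). Its relative *Rps6ka3* fell at 6 days (-0.49, SE 0.0795, adjusted p = 0.00663). The RAS exchange factor gene *Sos2* rose at 6 days (0.52, SE 0.0682, adjusted p = 0.00107). None of these 3 calls at 6 days held on either TPM scale, with log2 fold changes of -0.57 for *Rps6ka3*, 0.41 for *Sos2* and 0.42 for *Rps6ka2* on log2(TPM + 1). The 3-day call of *Rps6ka2* was also lost on both TPM scales (0.28 and 0.35) and with the average length offset (adjusted p = 0.0876). The scaffold gene *Ksr1* was called lower at 3 days (-0.48, SE 0.102, adjusted p = 0.0492) and lost that call under RLE scaling (adjusted p = 0.0524), DESeq2 (adjusted p = 0.441), both TPM scales, the replicate block (adjusted p = 0.0608), the average length offset (adjusted p = 0.1) and the length spline (-0.31, adjusted p = 0.571). It also lost it in 8 of the 16 fits that left out 1 library, each of which brought the count of lower relay genes at 3 days from 1 to 0. Transcript levels of the relay say nothing of the phosphorylation of its kinases, which was not measured.

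**Figure D4:**
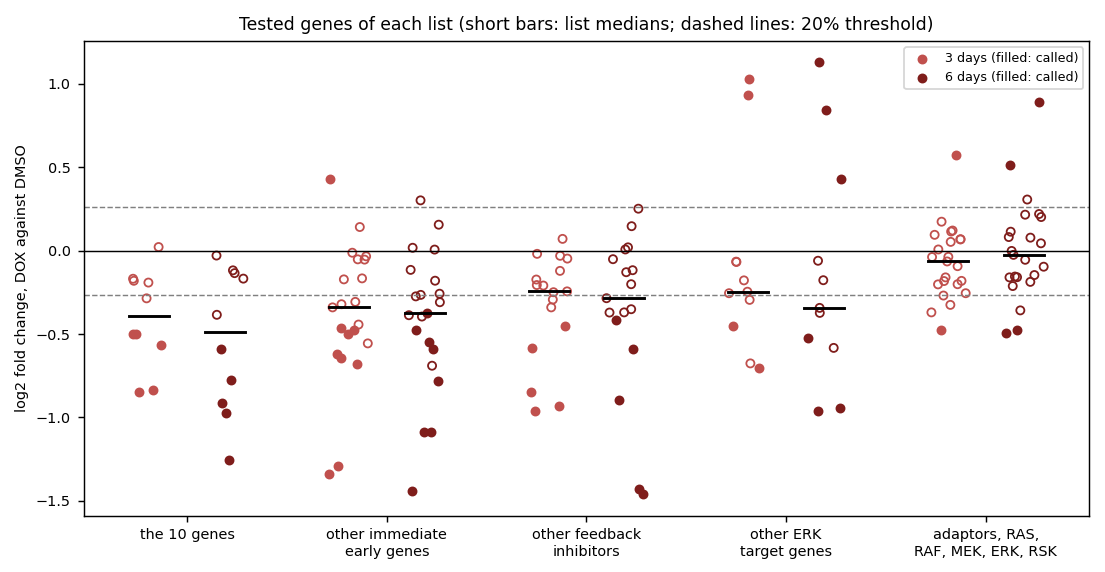
Log2 fold change of DOX against DMSO for the tested genes of 5 lists at 3 days (light) and 6 days (dark), with list medians as short bars and called genes filled. Most called immediate early genes and feedback inhibitors lie below 0, while ERK targets and relay genes lie on both sides.

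Across the 16 libraries, the genes whose log2 CPM followed *Egr1* most closely were *Sgms1* (Pearson r = 0.9803), *Ift80* (0.9796), *Man2a1* (0.9689), *Ugt8a* (0.9665) and *Castor2* (0.9657). Those that followed *Dusp6* were *Spsb4* (0.9803), *Krt4* (0.9802), *Trim16* (0.9781), *Srd5a1* (0.9744) and *Limk1* (0.9742). These are descriptions over libraries that fall into 4 groups, and that share treatment and time within a group, and all 10 of these genes were called lower in DOX at both times.

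Markers of other cells were read beside these results. *Krt8* and *Cdh1* fell at 3 days and *Krt8*, *Krt18*, *Cldn4* and *Tjp1* at 6 days among the 7 epithelial markers. *Scnn1a*, a subunit of the epithelial sodium channel, had log2 fold changes of -1.05 (SE 0.116, adjusted p = 8.96e-06) and -1.48 (SE 0.122, adjusted p = 2.13e-08), and *Gata3*, a collecting duct transcription factor, of -0.74 and -0.97, all called. The 7 mesenchymal markers summed to between 0.925 and 3.41 TPM in any library, with *Col3a1* at 0 in 10 of 16 libraries. Of 7 endothelial and leukocyte markers, the lysosomal protein gene *Cd68* reached 7.76 to 24.4 TPM and was lower with DOX, and the other 6 together did not pass 1.32 TPM. *Adgre1* and *Cd3e*, which define macrophages and T cells, were each at 0 in 12 of 16 libraries. The part of the epithelial and collecting duct markers in the changes of the 10 genes was not tested.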

How the data were processed

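RNA of 16 mIMCD3 libraries was sequenced as paired reads, which the authors aligned to GRCm38.p6 with STAR 2.6.0c and quantified with salmon 0.14.10, per the labels and methods. The estimated counts per gene were deposited without normalization, and 20.1% of the values were not whole. The TPM values were also deposited, and 1039 genes of the count table had none. Columns of comparisons were not present, and 0 columns of values stayed unmapped. Positions came from GENCODE M21, which held all 54393 identifiers. The annotation release used for counting and its strand setting are not given in the sources used here.

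Estimated counts were rounded. Genes with CPM of at least 1 in at least 4 libraries were kept (13234). edgeR 4.0.16 in R 4.3.3 used TMM scaling and a robust quasi-likelihood fit with a mean per group over the 16 libraries. glmTreat with a fold threshold of 1.2 tested DOX against DMSO and 6 against 3 days, and glmQLFTest the difference of the DOX effects, all two-sided, with Benjamini-Hochberg adjustment over all tested genes and 0.05 as the limit. The SE is the log2 fold change divided by the square root of F. Levels were compared between genes as TPM, and 3 counts correspond to 0.125 to 0.177 CPM.

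The 10 genes, the other lists and the tests were chosen with earlier results of these data known. All 10 were named. From each other pathway list, up to 4 called genes with the largest change at 6 days and up to 4 at 3 days were named, and *Myc*, *Hbegf* and *Lif* were added after their values were seen. For 1 called gene no values are given here. Genes alike were the 5 with the highest r to *Egr1* and to *Dusp6*. Alternatives were RLE scaling, DESeq2 1.42.0, no fold threshold, other filters, limma 3.58.1 on log2(TPM + 1) and log2(TPM + 0.1), a replicate block, fits of 8 libraries, offsets for average transcript length (from the ratio of count to TPM) and for a spline of length with 5 degrees of freedom, and leaving out each library. Counts were also simulated with known changes in 200 genes, raised and lowered in equal numbers, and 13088 genes passed the filter. On these, glmTreat recovered 88.9% of 2-fold changes and 66% of 1.5-fold changes at 3 days, and 87.9% and 60% at 6 days, with 0 false calls. Far fewer genes changed in the simulation than were called in the data, so these rates may not hold for the data.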

Additional observations from a re-analysis of the deposited data

Results flagged for a closer look

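Among 40 groups of 4 libraries, the 10 genes in each of the 4 groups, 2 held a library that stood apart from the other 3 by Dixon's test, where chance alone gives about 5% of groups. *Jun* was high in DMSO replicate 1 of 6 days, at 52.22 CPM (a gap of 0.884 of the group's range). *Spry4* was low in DOX replicate 1 of 3 days, at 5.458 CPM (a gap of 0.939 of the range).

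The DOX effect differed between the times for 9 of the named genes by edgeR's interaction test. The difference on the log2 scale, 6 minus 3 days, was -0.35 for *Fosl1* (adjusted p = 0.0489), -0.42 for *Jun* (adjusted p = 0.0318), -0.50 for *Dusp10* (adjusted p = 0.00639) and -0.50 for *Dusp1* (adjusted p = 0.0082). It was -0.35 for *Dusp14* (adjusted p = 0.0185), -0.49 for *Phlda1* (adjusted p = 0.00639) and -0.27 for *Hbegf* (adjusted p = 0.0278). It was above 0 for *Sos2* (0.45, adjusted p = 0.00453) and *Lif* (0.50, adjusted p = 0.0063).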

How the results depend on the processing

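The count of 5 of 10 genes lower stayed at 4 or 5 at 3 days and at 5 at 6 days under every alternative but removal of the fold threshold, which gave 7 at each time by adding *Dusp4* and *Dusp5* at 3 days and *Dusp4* and *Spry4* at 6 days, and leaving out DMSO replicate 1 of 6 days, which gave 6 at 6 days. Of the 13234 tested genes, 2935 were lower at 3 days and 3306 at 6 days without the threshold, against 956 and 1530 with it. The difference between times was less stable. Its count of 2 genes became 0 with a threshold of 1.2, with limma on log2(TPM + 1) or log2(TPM + 0.1) and with the average length offset, 1 without a filter, and 0 to 3 when libraries were left out. The spline of length kept 2, with *Dusp6* in place of *Fosl1*. With DOX alone, 6 against 3 days went from 0 to 3 genes without a threshold, where 1934 of the 13234 tested genes were lower and 2066 higher. It ranged from 0 to 1 without single libraries. Libraries with the same replicate number were not alike (mean r of their deviations -0.0955 at 3 days and -0.121 at 6 days, 0 of 8 libraries closest to their own number), and the replicate block kept 5 and 5 genes lower and left 1 gene, *Fosl1*, in the difference between times. Signs that turned belonged to changes that were not called. At 3 days *Spry2* went to -0.145 and -0.165 on the TPM scales, -0.00531 with the length spline, -0.00332 with spline and block, and -0.0203 to 0.0496 without single libraries. *Spry4* went to 0.00707 and 0.00263 with the spline without and with the block, and *Sos2* to -0.171 and -0.182 on the TPM scales. At 6 days *Dusp5* was 0.00902 without a filter and -0.0859 to 0.0265 without single libraries. In the difference between times *Egr1* was 0.0436 and 0.0445 on the TPM scales, *Fos* 0.0177 on log2(TPM + 0.1) and *Junb* -0.046 to 0.144 without single libraries. From 3 to 6 days these ranges were -0.0674 to 0.00776 for *Dusp4*, -0.0757 to 0.0894 for *Junb* and -0.197 to 0.062 for *Spry4* in DMSO, and -0.0805 to 0.115 for *Fos* and -0.0111 to 0.131 for *Junb* in DOX.

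Over all genes, 956 were lower and 702 higher at 3 days, and 1530 and 1326 at 6 days. DESeq2 gave 606 and 413, then 1096 and 866. No threshold gave 2935 and 3047, then 3306 and 3396. limma gave 601 and 85, then 922 and 373 on log2(TPM + 1), and 781 and 106, then 1070 and 447 on log2(TPM + 0.1), where the median gene stood at -0.149 and -0.178 at 3 days and at -0.0547 and -0.063 at 6 days. For the difference between times, 1268 lower and 984 higher became 96 and 87 with a threshold, 392 and 259 and then 396 and 245 on the TPM scales, 725 and 543 with the average length offset, and 912 and 589 with spline and block. DOX at 6 against 3 days went from 341 and 181 to 174 and 69 with DESeq2 and to 1934 and 2066 without a threshold. Leaving out 1 library moved the lower and higher counts to between 789 and 1951 and between 581 and 1837 for the difference between times (lowest without DMSO replicate 4 of 3 days, highest without DOX replicate 1 of 3 days), and the lower count of DOX at 6 against 3 days to between 205 and 652 (without DOX replicates 4 and 1 of 3 days) and its higher count to between 101 and 270 (without DOX replicates 3 and 1 of 6 days). At 3 days 1079 genes were higher without DOX replicate 1. Without a threshold the other immediate early genes had 16 lower at 6 days, the feedback inhibitors 8 lower at both times and the ERK targets 5 and 6. In the relay list the lower count at 6 days was 1 without DMSO replicate 4 of 6 days and 0 on the TPM scales. The cause of these shifts was not tested. Depth limits *Spry4* and *Fos* most, with 81 to 185 and 88 to 232 counts per library.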
